A study of Mus musculus with 18 samples.

Results

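Conventional CD4+ T cells (Tconv) from brown adipose tissue (BAT) of cold-exposed mice were compared with Tconv cells from the spleen of warm mice, on 6 of the 18 arrays of the series. The 6 arrays were chosen by their sample labels alone, as the 3 arrays of Tconv cells from BAT at 12°C and the 3 arrays of Tconv cells from spleen at 30°C. The other 12 arrays held Tconv cells from warm BAT and regulatory T cells (Treg) from warm BAT, cold BAT and spleen, with 3 arrays per group, and served for the shared estimate of the spread and for 2 further comparisons. All arrays were Illumina MouseWG-6 v2.0 Expression BeadChips, on which each probe is carried by many beads whose mean brightness is read.

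According to the methods, wild-type C57Bl6 females that arrived at 8 weeks of age were kept at 30°C for 2 weeks, and the cold-exposed mice were then held at 12°C for 2 days. The sample labels instead give the genotype Foxp3-GFP-DTR-CD90.1 on the C57BL/6 background for all groups, a reporter strain in which Foxp3-expressing cells are marked. Tconv cells are CD4+Foxp3- in the labels and CD4+CD25- in the methods, so the gate that was used is uncertain. Organs were pooled before sorting and 2.5 ng of RNA was amplified for each array. A replicate was therefore a pool of mice, and the p-values below measure the spread between pools and their amplifications.

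BAT burns fuel to produce heat when an animal is cold, under the control of sympathetic nerves, and its stroma holds resident immune cells. Tconv cells recognise antigen through their T cell receptor and help other immune cells through cytokines. The spleen is rich in naive cells that circulate through blood and lymphoid organs, whereas CD4+ T cells of non-lymphoid tissues are mostly antigen-experienced. Treg cells are the CD4+ cells that restrain such responses, and they depend on the transcription factor Foxp3.

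The 3 cold BAT arrays lay on one BeadChip and the 3 spleen arrays on another. Tissue, temperature and BeadChip all differed between the groups, and their parts in any difference cannot be told apart. The table pairs 0 of its 46237 rows with a gene name, and no annotation of the probes was used here. Differences are therefore given for probes, T cell markers and markers of other cells were not analysed here, and the labelled cell types could not be checked. Signals are given as normalised log2 values, and values of different probes were not compared as levels.

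Of the 45267 regular probes, 35.7% to 37.6% were detected on the cold BAT Tconv arrays (deposited detection p-value under 0.05) and 27.8% to 35.1% on the splenic Tconv arrays. The same limit was passed by 22.5% to 24.9% of the negative control probes on these 6 arrays. Above the 95th percentile of the negative controls of its own array lay 12.8% to 15.6% of the probes in cold BAT and 8.93% to 12.3% in spleen. The beads behind a probe numbered 38 to 41 at the median of each array. The median standard error from beads alone was 0.069 to 0.079 on the log2 scale, for deposited intensities before normalisation.

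The 3 cold BAT Tconv arrays resembled each other more than the 3 splenic Tconv arrays did. Pearson's correlation across the 17395 tested probes, which are not independent of one another, was 0.895 to 0.904 between cold BAT arrays and 0.668 to 0.739 between spleen arrays. The lowest value was that between spleen replicates 2 and 3. Replicate 1 of the splenic Tconv cells correlated with the other 2 spleen arrays at 0.727 and 0.739. It was the spleen array most like the rest of its group, yet it correlated more with the cold BAT arrays, at 0.834 to 0.852. It also had the highest share of detected probes in its group (35.1%, against 27.8% and 29.2%). The results below are therefore also given without it. Leaving out an array singled out for its likeness to cold BAT favours larger differences and more calls. Such increases, also in the comparison with Treg cells, are not read as support.

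The median SD between replicates was 0.24 in cold BAT and 0.31 in spleen, and 62.8% of the tested probes had the larger SD in spleen. The control probes showed how far the groups differed before normalisation, in log2 deposited intensity. The biotin and hybridisation controls, which read the staining and washing of a BeadChip, differed between the group means by 0.11 or less. Negative controls were 0.19 higher on the cold BAT arrays. The mean of 14 housekeeping probes was 9.62 ± 0.08 (SD, n = 3) in cold BAT and 9.13 ± 0.25 (SD, n = 3) in spleen, a difference of 0.49. The arrays of the groups did not overlap in this mean. Over the 14 probes the difference ranged from 0.03 to 1.59, with a median of 0.26. The 2 housekeeping probes with more than 2-fold higher intensity in cold BAT were lowest on replicate 2 of the spleen, at 6.94 and 6.66. The part of these differences in the results was not tested.

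**Figure D1:**
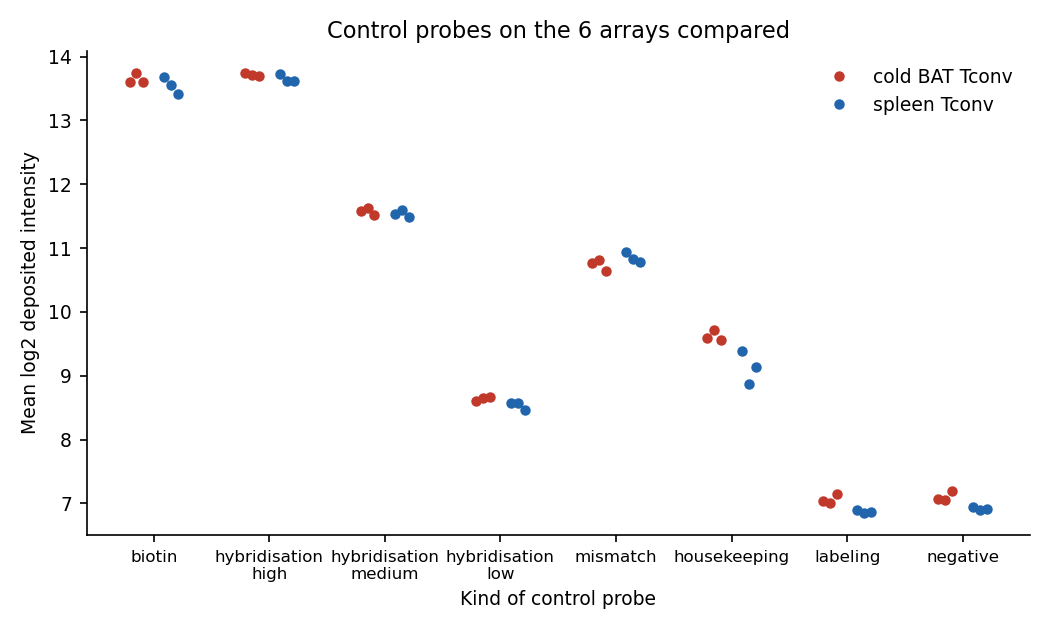
Mean log2 deposited intensity (vertical axis) of each kind of control probe (horizontal axis) on the 3 cold BAT Tconv arrays (red) and the 3 splenic Tconv arrays (blue), 1 point per array. Hybridisation controls nearly coincide, while the housekeeping probes lie at 9.56 to 9.71 in cold BAT and 8.87 to 9.38 in spleen.

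The main comparison asked which transcripts differ between Tconv cells of cold BAT and of spleen. More probes were higher than lower in cold BAT Tconv cells. Without a test, 1093 of the 17395 tested probes (6.28%) were more than 2-fold higher in cold BAT and 389 (2.24%) were more than 2-fold lower. Limma called 159 probes (0.914%) higher and 41 (0.236%) lower, at a difference of over 2-fold and an adjusted p below 0.05. The 200 calls were 1.15% of the probes tested. In such sorted populations, a change in the share of a kind of cell and a change in RNA per cell cannot be told apart. An adjusted p below 0.05 in limma at any fold was found for 218 probes (1.25%), and an unadjusted p below 0.05 for 2324 (13.4%). The median log2 difference of all tested probes was -0.01, with a 5th percentile of -0.74 and a 95th percentile of 1.13. The excess of higher probes grew under scaling to a common median in place of quantile normalisation. The median of all probes then rose to 0.13, and 203 higher and 9 lower probes were called, so that 95.8% of the calls were higher instead of 79.5%.

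**Figure D2:**
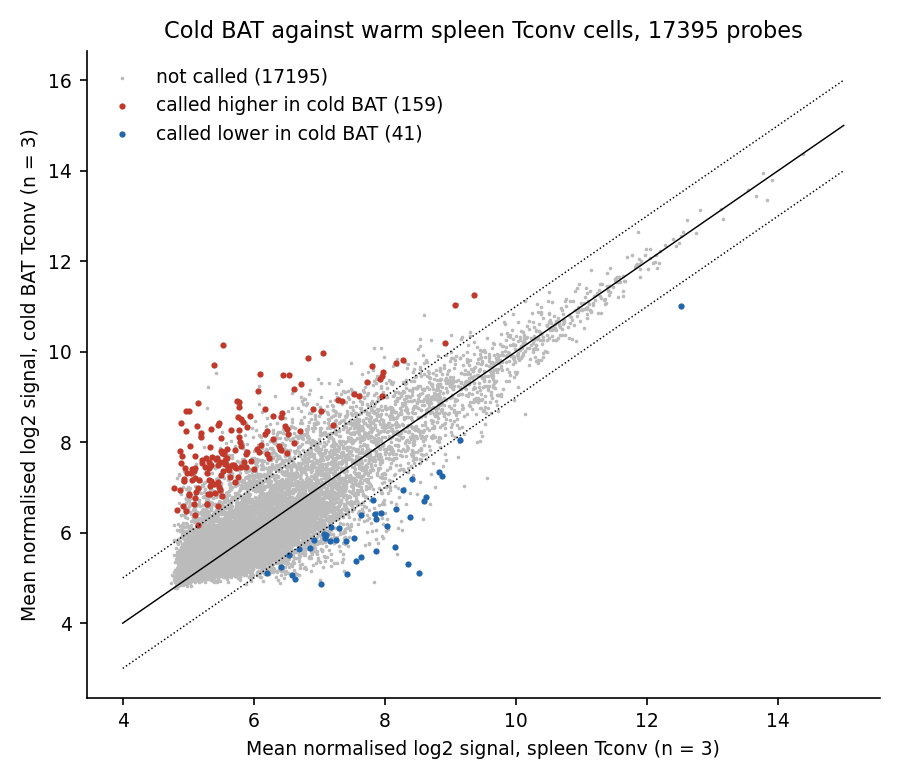
Mean normalised log2 signal of each tested probe in splenic Tconv cells (horizontal axis, n = 3) against cold BAT Tconv cells (vertical axis, n = 3), with the line of equality and dotted lines at a 2-fold difference. The 159 probes called higher (red) lie mostly where the spleen signal is low, and the 41 called lower (blue) lie below the lower dotted line.

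How many probes were called depended on individual arrays. Leaving out replicate 1 of the splenic Tconv cells gave 523 calls, 365 higher (2.08% of 17557 tested) and 158 lower (0.9%). This rise is favoured by the choice of the array left out. The 523 calls included 146 of the 159 higher and 38 of the 41 lower probes. The median log2 differences of the 365 and the 158 probes were 2.10 and -1.45. Leaving out a cold BAT array lowered the total to 120 without replicate 1, to 73 without replicate 2 and to 118 without replicate 3. Without replicate 2 of the spleen 154 were called, 101 of them higher, and without replicate 3 of the spleen 240, 90 of them lower. The methods' t-test on log2 signals passed 460 higher and 102 lower probes over 2-fold at p below 0.05 without adjustment, and 0 once Benjamini-Hochberg adjustment was applied.

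The 159 probes called higher in cold BAT had a median log2 difference of 2.00, and the middle part of them (25th to 75th percentile) lay between 1.65 and 2.42. With undetected spleen signals raised to the lowest detected signal of their own array, the median was 1.93. The log2 difference was above 2 (over 4-fold) for 80 of them and above 3 (over 8-fold) for 16. All 159 were detected on each of the 3 cold BAT arrays. In spleen, 23 of them (14.5%) were detected on none of the 3 arrays, 32 on 1, 49 on 2 and 55 (34.6%) on all 3. Most of the higher probes were thus not detected on at least 1 spleen array.

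The 41 probes called lower had smaller differences, with a median of -1.50 (25th to 75th percentile -1.89 to -1.19), or -1.47 with undetected cold BAT signals at the lowest detected signal. Only 9 of the 41 were over 4-fold lower and 2 over 8-fold lower. On the cold BAT arrays 32 of them were still detected on all 3, and 3 on none. Of 8071 probes with a detected signal on every one of the 6 arrays, limma called 55 higher and 32 lower (1.08% in both directions together). Presence on all 3 arrays of one group and none of the other was also uneven. Of the 17395 tested probes, it held for 447 in cold BAT, of which 23 were called, and for 51 in spleen, of which 3 were called. Detection as a whole was lower on the spleen arrays (27.8% to 35.1% of regular probes, against 35.7% to 37.6%). The part of this in the uneven counts was not tested.

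By mean signal over all 18 arrays, higher calls fell mostly among the brightest probes, and lower calls less so. When the tested probes were split by their mean signal over all 18 arrays into 4 classes of like size, the brightest class held 141 of the 159 higher probes (3.24% of its probes). From the dimmest to the brightest class, 0, 4, 14 and 141 probes were called higher and 4, 2, 19 and 16 lower. The mean signal includes the arrays that chose the probes and those of the other BAT groups. That favours a bright class for higher and a dimmer class for lower probes, and nothing is read from these counts. In spleen the 159 higher probes had a median signal of 5.58, against 7.75 in cold BAT. Most probes past 2-fold were not called, 934 in the higher and 348 in the lower direction. Their median standard error was 0.56 for the higher and 0.55 for the lower probes, against 0.36 and 0.27 for those called. The larger spread lay in the spleen, where the uncalled probes had a median SD of 0.79 (higher) and 1.29 (lower), against 0.43 and 0.29 in cold BAT.

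All 200 called probes had 3 arrays of one group above all 3 arrays of the other. Over all tested probes, 1791 (10.3%) had the 3 cold BAT arrays above the 3 spleen arrays and 1341 (7.71%) had them below. Replicate 1 of the spleen lay nearest to cold BAT for most of the called probes. It was the highest of the 3 spleen arrays for 100 of the 159 higher probes, and the lowest of them for 24 of the 41 lower probes. The same counts were not made over all tested probes, so this is not read as particular to the called probes. For 3 arrays against 3, the exact permutation test of 1 probe cannot reach a two-sided p under 0.1, so the calls rest on the spread that limma pools over probes and arrays. In a fit of the 6 arrays alone, limma still called 52 of the 159 higher and 5 of the 41 lower probes.

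The probe with the largest increase was ILMN_2657175. Its signals were 9.55, 10.57 and 10.31 on the 3 cold BAT Tconv arrays and 5.30, 5.06 and 6.22 on the 3 splenic Tconv arrays. As deposited, before background correction, these were intensities of 769, 1884 and 1358 in cold BAT and 146, 116 and 179 in spleen. The groups did not overlap, which was a condition for naming the probe, and the second spleen array was at background. The log2 difference was 4.62 (standard error 0.44), or 24.5-fold, with an adjusted p of 0.000156 in limma, and 4.51 without replicate 1 of the spleen. In a limma fit of the 6 arrays alone, the adjusted p was 0.0256. With spleen signals this near background the size depended on the correction, and was 3.84 with an offset of 50 and 2.97 without background correction. The same probe differed by 4.61 between cold BAT and splenic Treg cells (adjusted p = 4.76e-05 in limma). It was thus bright in both cell types of BAT and near background in both cell types of spleen.

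ILMN_1218525 had the next largest increase. Its signals were 9.60, 9.75 and 9.77 in cold BAT Tconv cells and 5.62, 5.01 and 5.56 in splenic Tconv cells. All 3 cold BAT arrays were far above the spleen, where the second array again was not detected. The log2 difference was 4.31 (standard error 0.74; adjusted p = 0.0112 in limma), or 3.51 with an offset of 50 and 2.63 without background correction. The adjusted p was 0.0514 without replicate 2 of cold BAT, with a range of 0.00447 to 0.0514 over the alternatives. In cold BAT Treg cells the probe read 6.06, 6.29 and 8.62, and in splenic Treg cells 8.19, 4.98 and 4.86. Those arrays overlapped between the tissues, and the Treg difference of 0.98 (standard error 0.74) was not called. The test of Tconv against Treg differences gave 3.33 (standard error 1.05; adjusted p = 0.221 in limma) and was not called either.

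The largest decrease was that of ILMN_2632008, which read 4.93, 5.16 and 5.24 in cold BAT Tconv cells and 7.56, 9.12 and 8.88 in splenic Tconv cells. The deposited intensities were 124, 149 and 170 in cold BAT and 284, 486 and 475 in spleen. All cold BAT arrays were at or just above background (2 of 3 detected). All spleen arrays were well above it, with replicate 1 the lowest. The log2 difference was -3.41 (standard error 0.48; adjusted p = 0.00235 in limma), 10.6-fold lower in cold BAT. Without replicate 1 of the spleen it was -3.91, with an offset of 50 it was -2.56, and without background correction it was -1.93.

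ILMN_1229383 read 5.41, 5.38 and 5.16 in cold BAT Tconv cells and 7.57, 8.57 and 8.92 in splenic Tconv cells. The cold BAT arrays lay close together and low, and the spleen arrays were all higher, replicate 1 again the least. The log2 difference was -3.04 (standard error 0.26; adjusted p = 7.07e-05 in limma), 8.21-fold lower in cold BAT, and -3.45 without replicate 1 of the spleen. It was -2.30 with an offset of 50 and -1.63 without background correction. In splenic Treg cells the same probe read 5.39, 5.47 and 5.08, near its level in BAT, so that of these groups only the splenic Tconv cells had a bright signal.

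**Figure D3:**
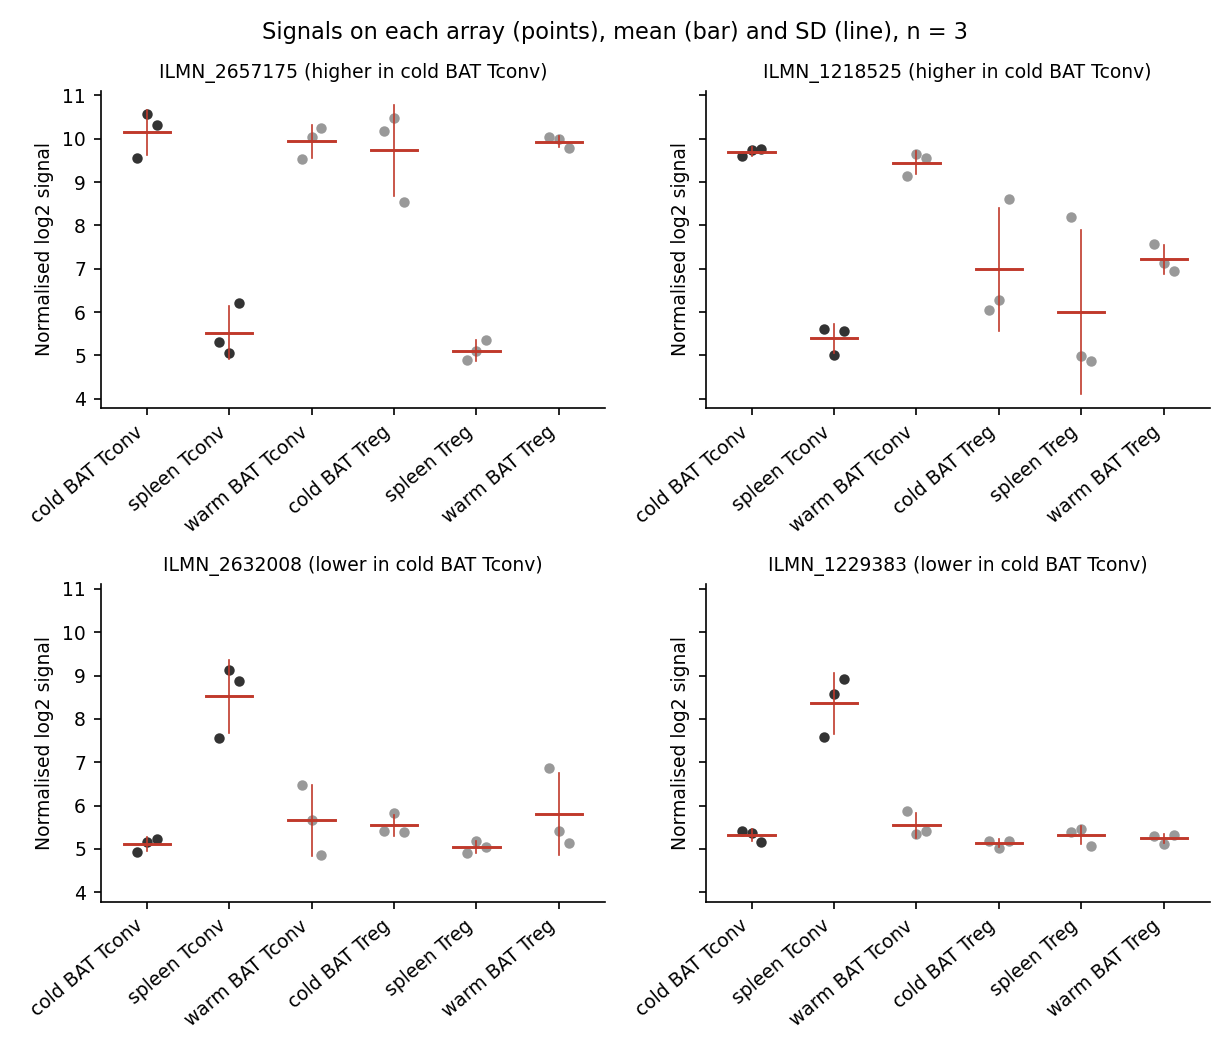
Normalised log2 signal (vertical axis) of the 2 highest and the 2 lowest called probes on every array of the 6 groups (horizontal axis). Points are arrays, bars the mean and lines the SD (n = 3). Black points are the groups compared, and a lack of overlap between these was a condition for choosing the 4 probes.

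The next comparison placed the same probes in Treg cells of the same tissues. Cold BAT and splenic Treg arrays were not used to choose the 200 probes, although they shared the BeadChips and went through the same normalisation, filter and pooled spread. The mean signal over the 159 higher probes was 7.88, 8.04 and 7.97 on the cold BAT Tconv arrays and 6.14, 5.62 and 5.79 on the splenic Tconv arrays, a separation that follows from the choice of the probes. In Treg cells it was 7.96 ± 0.07 (SD, n = 3) in cold BAT and 6.82 ± 0.14 in spleen. The 3 cold BAT Treg arrays were above the 3 splenic Treg arrays, and the splenic Treg arrays were above the splenic Tconv arrays. The order of the splenic Tconv and Treg arrays is favoured by the choice of the probes, which used the splenic Tconv arrays, and nothing is read from it.

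Of the 159 higher probes, 130 (81.8%) were also higher in cold BAT than in splenic Treg cells, where 41% of all tested probes had a difference above 0. Limma called 54 of them (34%) higher in cold BAT Treg cells and 1 lower, against 3.42% called higher over all tested probes. These 54 were 9.08% of the 595 probes called higher in the Treg comparison. Of the 159 probes, 141 were in the brightest class by mean signal, whereas all tested probes include the dim ones. The part of signal level in the unlike shares was not tested. The median Treg difference of the 159 probes was 0.89, less than their 2.00 in Tconv cells, on which they were chosen. Of the 365 probes called higher without replicate 1 of the splenic Tconv cells, 76 (20.8%) were called higher in Treg cells, beside 3.51% of all probes in that fit.

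The 41 lower probes had a mean signal of 6.13 ± 0.08 (SD, n = 3) in cold BAT and 7.74 ± 0.25 in splenic Tconv cells. In Treg cells the means were 6.00 ± 0.03 in cold BAT and 6.43 ± 0.08 in spleen, again with no overlap but closer together. Lower values in cold BAT Treg cells were found for 33 of the 41 (80.5%), with a median difference of -0.41. Limma called 5 of the 41 (12.2%) lower in Treg cells, against 1.81% of all tested probes, and these 5 were 1.59% of the 314 probes called lower there. Without replicate 1 of the splenic Tconv cells, 10 of 158 lower probes (6.33%) were called lower in Treg cells, beside 2% of all probes.

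**Figure D4:**
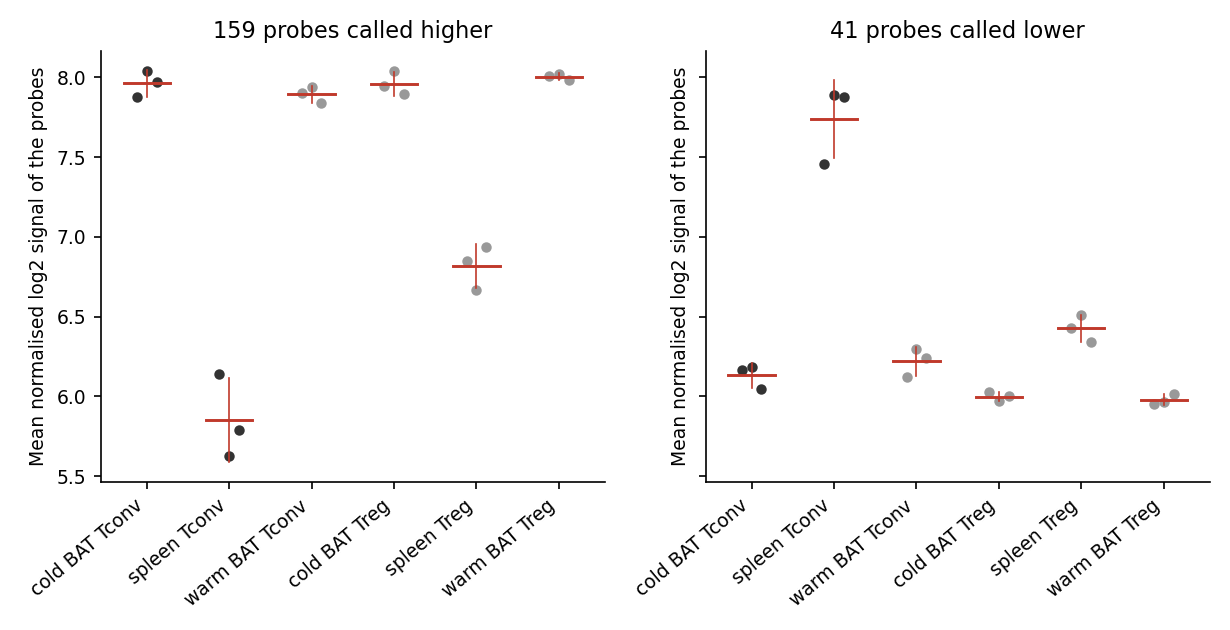
Mean normalised log2 signal (vertical axis) over the 159 probes called higher and the 41 called lower in cold BAT against splenic Tconv cells, on every array of the 6 groups (horizontal axis; points are arrays, bars the mean, lines the SD, n = 3). The black groups chose the probes; for the higher probes the splenic Treg arrays (grey) lie at 6.67 to 6.94, between the splenic Tconv and the BAT arrays.

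Whether the difference between cold BAT and spleen itself differed between Tconv and Treg cells was tested as an interaction in the same limma fit. In this test, differences between BeadChips that act alike on both cell types drop out, as does any part of tissue and temperature common to both. Limma called 56 of the 17395 probes (0.322%), and 2131 (12.3%) had an unadjusted p under 0.05. The Tconv difference was called above the Treg difference for 22 probes (0.126%) and below it for 34 (0.195%). Among the 22, the median difference was 1.36 in Tconv and -0.87 in Treg cells, and 17 had opposite signs in the 2 cell types. Among the 34, the median was -0.01 in Tconv and 1.99 in Treg cells, and 17 had opposite signs. The difference was over 2-fold in Treg and under 2-fold in Tconv cells for 24 of the 34, while 9 were more than 2-fold lower in cold BAT Tconv cells. Among the 8071 probes detected on all 6 Tconv arrays, limma called 6 (3 above and 3 below). A probe near background in both Tconv groups has a Tconv difference near 0 for that reason alone. The signs of such small differences are therefore not read.

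The interaction called 173 probes without replicate 1 of the splenic Tconv cells (108 above, 65 below) and 259 without replicate 3 of the cold BAT Treg cells. It called 94 without replicate 2 of the cold BAT Treg cells and 33 without replicate 1 of the splenic Treg cells. Without replicates 1, 2 and 3 of the cold BAT Tconv cells it called 26, 25 and 25. Within the 159 higher probes, 11 had a Tconv difference called above the Treg difference and 1 had it called below. Within the 41 lower probes, 4 were called further below in Tconv than in Treg cells. The probes were chosen on 6 of the 12 arrays of this test, and nothing is read from these counts.

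Both named lower probes were among those 4. The Tconv minus Treg difference of ILMN_1229383 was -2.85 (standard error 0.37; adjusted p = 0.00610 in limma), and it was called in all 22 alternatives (adjusted p 8.81e-05 to 0.0361). That of ILMN_2632008 was -3.91 (standard error 0.67; adjusted p = 0.0246 in limma), called in 12 of 21 alternatives in which the probe was tested (adjusted p 0.00509 to 0.0684). Both probes were bright on all 3 splenic Tconv arrays and at most 5.47 on the splenic Treg arrays.

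The highest interaction was that of ILMN_1243082. In Tconv cells it read 8.54, 8.45 and 9.06 in cold BAT and 9.18, 6.23 and 7.48 in spleen. In Treg cells it read 5.82, 6.01 and 6.16 in cold BAT and 9.51, 10.03 and 8.12 in spleen. The Treg groups did not overlap and cold BAT was lower, whereas the Tconv groups overlapped through replicate 1 of the spleen. The Tconv difference of 1.05 (standard error 0.59; adjusted p = 0.479 in limma) was not called. The interaction was 4.28 (standard error 0.84; adjusted p = 0.0467 in limma), called in 5 of 22 alternatives (adjusted p 0.00262 to 0.149). Without replicate 1 of the splenic Tconv cells it was 5.06.

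The lowest interaction was that of ILMN_1229957. In Tconv cells it read 8.28, 7.15 and 5.64 in cold BAT and 9.01, 9.88 and 8.73 in spleen. In Treg cells it read 10.06, 10.64 and 6.49 in cold BAT and 4.83, 4.93 and 5.03 in spleen, where it was detected on none of the arrays. The directions were opposite in the 2 cell types, and cold BAT replicate 3 was the lowest array of its group in both. The interaction was -6.32 (standard error 1.22; adjusted p = 0.0445 in limma), called in 6 of 22 alternatives (adjusted p 0.000774 to 0.144).

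**Figure D5:**
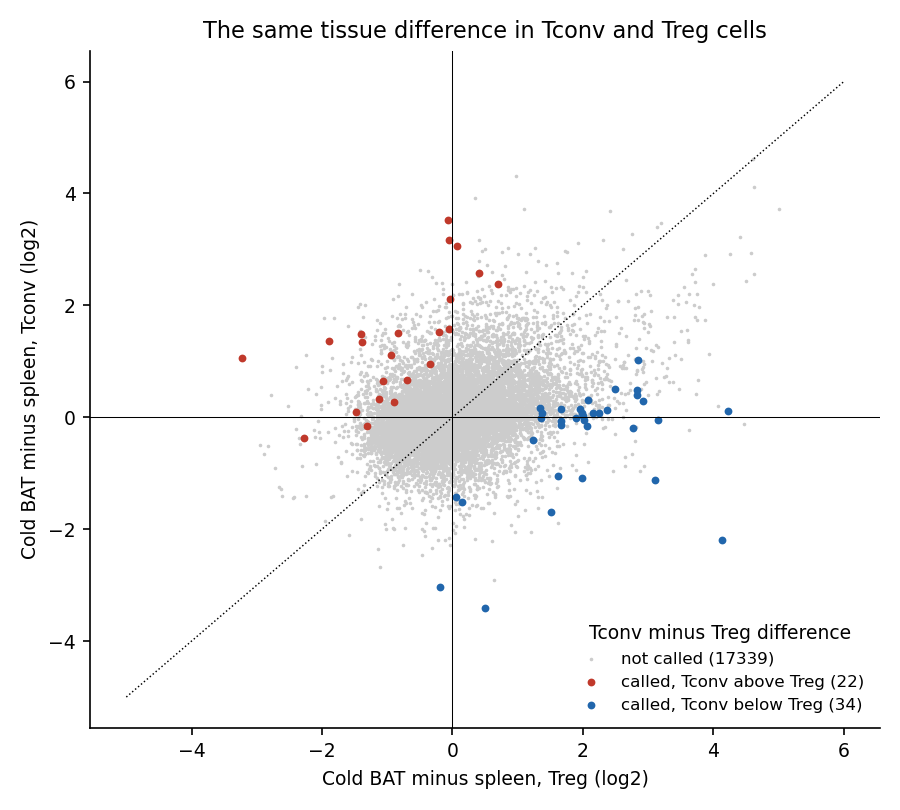
Log2 difference between cold BAT and spleen in Treg cells (horizontal axis) and in Tconv cells (vertical axis) for each tested probe, with a dotted line where both are equal. The 22 red points were called with the Tconv above the Treg difference and the 34 blue points with it below. Many of the blue points lie near 0 on the Tconv axis, where probes near background in both Tconv groups also fall.

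The last comparison asked how far Tconv cells of cold and of warm BAT differed. Limma called 0 probes higher in the cold and 1 lower (0.00575%). Without adjustment, p was below 0.05 for 761 probes (4.37%). The 159 higher probes had a mean signal of 7.96 ± 0.08 (SD, n = 3) in cold and 7.89 ± 0.05 in warm BAT Tconv cells. The arrays overlapped, and the median log2 difference was 0.06. Of these probes 0 were called by limma, and 24 had an unadjusted p under 0.05. The 159 and the 41 probes were chosen partly on the cold BAT Tconv arrays. That favours a difference from warm BAT in the direction called, and nothing is read from the unadjusted counts. The 41 lower probes had means of 6.13 ± 0.08 in cold and 6.22 ± 0.09 in warm BAT, with a median difference of -0.07, 0 called by limma and 1 with an unadjusted p under 0.05. For comparison, the median difference between warm BAT and splenic Tconv cells was 1.98 over the 159 and -1.37 over the 41 probes, in a comparison that shares the 3 spleen arrays. Cold and warm BAT were on different BeadChips.

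The single probe called between cold and warm BAT Tconv cells was ILMN_2734340, named here because it is the only one, after its values were seen. It read 5.53, 5.55 and 5.69 in cold and 7.58, 7.53 and 7.38 in warm BAT Tconv cells. In splenic Tconv cells it read 5.07, 5.05 and 5.13 and was detected on 0 of 3 arrays. The cold BAT arrays were thus much nearer to the spleen than to warm BAT. The cold minus warm difference was -1.91 (standard error 0.24; adjusted p = 0.0220 in limma), and it was no longer called when any 1 of the 6 BAT Tconv arrays was left out. In Treg cells the probe was bright in cold BAT (7.98, 8.87 and 8.53) and in warm BAT (9.01, 8.33 and 8.83). The cold and warm BAT Treg arrays overlapped, and their difference was not tested here. The probe was lower in splenic Treg cells (5.70, 5.75 and 6.45). Its interaction was -1.98 (standard error 0.34; adjusted p = 0.0246 in limma), called in 13 of 21 alternatives (adjusted p 0.000249 to 0.0768).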

How the data were processed

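The authors deposited 1 table of mean bead intensities for each probe and array, not normalized per the file headers and with no background subtracted, and a deposited detection p-value, whose calculation is not given in the sources used here. The table also gives bead numbers and bead spread. These were read for the 6 arrays compared, and 60 columns of per-sample values were not used. The deposited intensity was corrected with the 936 negative control probes, given an offset of 16, quantile-normalized over the 18 arrays and taken to log2 (neqc, limma 3.58.1, R 4.3.3); 34 other control probes were left out. Samples were grouped by their labels.

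Tests were limited to probes whose detection p-value stayed below 0.05 throughout the 3 arrays of 1 or more groups. One mean per group was fitted to all 18 arrays (12 residual degrees of freedom), with moderated tests and Benjamini-Hochberg adjustment over the 17395 tested probes. The script was tested on simulated data. The probes named are the 2 highest and the 2 lowest called without overlap between the groups, and the highest and the lowest called interaction. The arrays, comparisons and lists were chosen with earlier results of these data known. The chosen lists of genes and markers could not be used, since the table names probes and not genes. The methods name Student's test for the study in general, run here as an alternative, but neither a normalization nor a test for these arrays in particular. Alternatives changed the background correction, offset, normalization, filter, test, replicate block and arrays in the fit. The number of arrays limits the precision. Python 3.11.15 with matplotlib 3.10.9 drew the figures.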

Additional observations from a re-analysis of the deposited data

Results flagged for a closer look

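The difference between cold BAT and spleen was tested between Tconv and Treg cells as an interaction in limma, and 56 probes were called, 22 with the Tconv above the Treg difference and 34 with it below. The named probes with a called interaction were ILMN_2632008 (-3.91), ILMN_1229383 (-2.85), ILMN_1243082 (4.28), ILMN_1229957 (-6.32) and ILMN_2734340 (-1.98), each on the log2 scale. The test for 1 outlying value within a group needs 4 or more arrays and was not applied to groups of 3.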

How the results depend on the processing

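The direction of every named probe was kept in all alternatives run, but sizes and counts of calls moved. Over the alternatives the log2 difference between cold BAT and splenic Tconv cells ranged from 2.97 to 4.97 for ILMN_2657175, 2.63 to 4.43 for ILMN_1218525, -3.91 to -1.93 for ILMN_2632008, -3.45 to -1.63 for ILMN_1229383, 0.35 to 1.83 for ILMN_1243082, -2.81 to -1.39 for ILMN_1229957 and 0.28 to 0.54 for ILMN_2734340. Calls between cold BAT and splenic Tconv cells numbered 200 (159 higher, 41 lower). They were 114 (99 and 15) without background correction, 99 (76 and 23) without a filter, 104 (79 and 25) with array weights and 81 (75 and 6) in a fit of the 6 arrays alone. The fit of the 6 arrays alone kept 57 of the 200 calls. Calls were 92 (58 higher) among probes detected on all 6 arrays. The lower probes were 27 with an offset of 50 and 9 with median scaling. The methods' t-test on log2 signals gave 562 (460 and 102) unadjusted, and on linear signals 11 lower; after Benjamini-Hochberg adjustment both gave 0 (0 higher and 0 lower). With 1 array left out the total ranged from 73 to 523, the higher from 54 to 365 and the lower from 19 to 158. For the interaction (56), the counts were 32 without background correction, 36 without a filter, 6 on all 6 arrays detected, 22 with array weights, 30 with only the arrays compared, and 25 to 259 with 1 array left out. For cold against warm BAT Tconv cells (1), limma called 0 without background correction, with an offset of 50, without a filter, on all 6 arrays detected and with the replicate block, 2 with median scaling, array weights or only the arrays compared, and 0 to 1 with 1 array left out. Array weights and a filter set at the 95th percentile of negative controls, which gave 285 calls, were chosen after seeing the data. Deviations of same-numbered arrays correlated at 0.02, -0.06 and 0.02, and 2 of 6 arrays correlated best with their own number. By the methods the cold and the warm mice were separate animals, so the 2 groups of these 6 arrays could not be paired by mouse. The correlations therefore decide nothing about such pairing. Pairing among the other arrays was not tested. The paper describes warm BAT and splenic Treg cells as coming from the same mice, and the main fit took no account of this for warm BAT against spleen. The main fit of the interaction took no account of any pairing of Tconv and Treg cells sorted from the same pools. With the replicate block 202 probes were called. Signals near background and 3 arrays per group limit what could be called.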
